A study of Macaca mulatta with 9 samples.

Results

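The cell cycle genes described here are 36 cyclins, cyclin-dependent kinases (CDKs) and E2F transcription factors of the rhesus monkey ovary. They were chosen by a pattern of gene symbols: CCN with a letter and a number, CCNH, CDK with a number, and E2F with a number. CDK1, CCNB1 and CCNB2 match this pattern but were left out by name, and the activators and partners of CDK5 were left out too. This choice was made with earlier results of these data known. The counts and medians of the 36 genes therefore do not cover CDK1, CCNB1 and CCNB2. These 36 genes stand among 14132 genes named by the array annotation, and they have 72 of the 52766 probe sets tested. A gene is given by its brightest probe set, the one with the highest mean over the 9 arrays. CCNB1IP1 and CDK2AP1, 2 genes whose symbols begin the same way but continue, were kept apart. No probe set carried the symbols CCND2, CCNI2, CCNL2, CDK5, CDK11A, CDK18, CDK20 or E2F6, so these genes were not analysed here.

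RNA from the ovaries of 9 female monkeys was hybridized to 9 single-colour Affymetrix arrays, with 1 monkey per array and 3 in each group. Young monkeys, aged 3 to 4 years, had normal cycles and had never been bred. Fertile animals of 7 to 8 years formed the middle-aged group, and the old group, of 18 to 19 years, no longer reproduced. The labels name no transgene or drug in any group, and all monkeys were perfused with cold buffer under deep anaesthesia before the ovaries were frozen. By the study's methods, the young and middle-aged monkeys were sampled near proestrus, and only part of 1 ovary was used from each monkey. Follicle makeup and cycle stage therefore cannot be told apart from age. In whole tissue, fewer cells of a type and less RNA per cell cannot be told apart either.

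A CDK is a kinase that is inactive until it binds a cyclin. D-type cyclins with CDK4 or CDK6, and then E-type cyclins with CDK2, phosphorylate the retinoblastoma family of pocket proteins, which frees the activator E2Fs to switch on genes for DNA synthesis, while A-type cyclins carry the cell through S phase and into mitosis. Other cyclins and CDKs (cyclins H, L and T with CDK7 to CDK9 and their relatives) act largely on RNA polymerase II. Of these, cyclin H and CDK7 also serve the division cycle as the CDK-activating kinase. In the ovary, dividing granulosa cells of growing follicles are the main users of the division cycle, and oocytes use several of the same proteins in meiosis.

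Between old and young ovaries, 27 of the 36 genes had a lower mean log2 intensity in the old group and 9 a higher one, and the median log2 difference was -0.34 against -0.00 over all named genes. Cyclin A2, both E-type cyclins, cyclin B3, cyclin T2, CDK2, CDK3, CDK6 and E2F7 stood on the low side, while cyclins D1 and D3 stood on the high side. None of these differences passed the test. A probe set was called by limma when it differed by 1.5-fold or more and its Benjamini-Hochberg adjusted p was below 0.05. By that measure 0 of the 36 genes and 0 of their 72 probe sets were called, where 0.155% of all probe sets were. The smallest adjusted p was 0.0971, for CDK3. At an unadjusted p under 0.05, 9 of the 36 genes (25%) were lower in old ovaries, compared with 12.0% of all named genes. Just 1 gene (2.78%), CCND1, was higher at that limit, compared with 6.80%. SAM, a permutation method that the study also names, was run anew here. It called 0 of the 36 in this comparison, where it called 0.627% of all probe sets. The settings of the study's own SAM run are not known here, so its calls can differ.

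The 3 old arrays lay wholly below the 3 young arrays for 11 of the 36 genes (30.6%), and 13.8% of all named genes did the same. These were CCNA1, CCNA2, CCNB3, CCNE1, CCNG2, CCNT2, CDK2, CDK3, CDK6, E2F2 and E2F7. For 0 of the 36 did the old arrays lie wholly above, where 7.80% of named genes did. The count of 11 became 17 without the first old monkey, where the share of named genes was 19.5%. With 3 arrays against 3, the smallest p an exact permutation test allows is 0.1, so a lack of overlap alone passes no threshold.

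**Figure D1:**
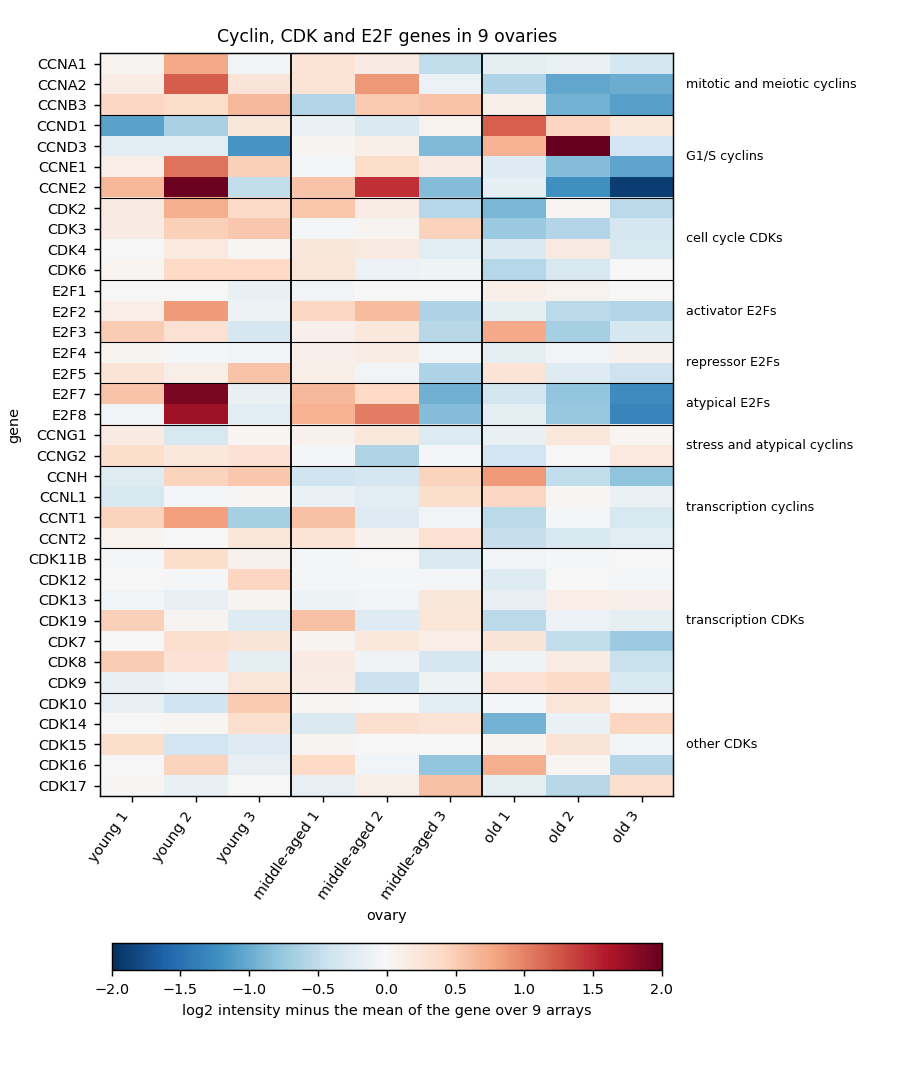
Each row is a gene, grouped by role, and each column an ovary; colour is the log2 intensity minus the mean of that gene over the 9 arrays, with the scale ending at 2 either way. The highest values of CCNE2, E2F7 and E2F8 stand in the young 2 array and that of CCND3 in the old 2 array, whereas E2F1 and E2F4 were nearly flat.

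Cyclin A2 (CCNA2), the A-type cyclin of dividing cells, measured 114, 237 and 122 in the young, 124, 186 and 94.5 in the middle-aged and 66.7, 49.9 and 51.4 in the old ovaries, in intensity units. All 3 old values lay below all 6 others. The log2 difference between old and young was -1.42 with a standard error (SE) of 0.33, a 2.68-fold lower level, at an adjusted p of 0.141. Its second probe set had a difference of -1.80 and separated the same groups.

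Cyclin B3 (CCNB3), which is known from meiosis, measured 42.5, 41.1 and 50.0 in young, 21.3, 46.0 and 47.5 in middle-aged and 34.7, 16.6 and 15.0 in old ovaries. Old and young did not overlap, but the first middle-aged monkey lay within the old range. The difference between old and young was -1.11 on the log2 scale (adjusted p = 0.274). Cyclin A1 (CCNA1), the germ cell form of cyclin A, lay between 18.5 and 32.5 in young and between 15.1 and 17.6 in old ovaries, a difference of -0.48. CCNA1 is among 4 dim genes, with CCNG2, CDK15 and E2F8, whose mean lay below the median of every array. Some old values of CCNB3, CCNE2, CDK6, E2F2 and E2F7 also lay below the median of their own array. The deposited values carry no detection calls, so it is not known whether such dim values were above background.

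The cyclins of the G1 to S step did not move as a block. Their log2 differences between old and young ranged from -1.82 for CCNE2 to 1.32 for CCND3. Both E-type cyclins, which switch on CDK2 at the start of DNA synthesis, had negative differences, and both D-type cyclins, which relay growth signals to CDK4 and CDK6, had positive ones.

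Cyclin E1 (CCNE1) measured 89.8, 175 and 114 in young, 79.8, 106 and 92.0 in middle-aged and 68.3, 45.0 and 39.5 in old ovaries. Every old array lay below every younger one. The difference was -1.30 with an SE of 0.28 (2.46-fold lower, adjusted p = 0.123). Cyclin E2 (CCNE2) had the widest spread: 41.9, 102 and 18.8 in young, 39.0, 72.8 and 14.4 in middle-aged and 23.2, 11.2 and 7.07 in old ovaries. The third young and the third middle-aged monkeys lay within the old range. Its mean difference of -1.82 therefore had a 95% interval from -3.57 to -0.07 and an adjusted p of 0.353, and its dimmer probe set had a difference of -0.41.

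Cyclin D1 (CCND1) measured 99.2, 133 and 243 in young, 191, 170 and 219 in middle-aged and 478, 282 and 242 in old ovaries. The third young monkey was level with the third old one, so these groups overlapped, while the old arrays were all above the middle-aged arrays. The difference between old and young was 1.11 with an SE of 0.35 (2.17-fold, adjusted p = 0.236). Cyclin D3 (CCND3) measured 311, 314 and 160 in young, 376, 395 and 198 in middle-aged and 592, 1474 and 278 in old ovaries. The second old monkey alone was far above all others, and the third old monkey was below both the first and second young monkeys. The difference of 1.32 had a 95% interval from -0.01 to 2.64 and an adjusted p of 0.374.

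**Figure D2:**
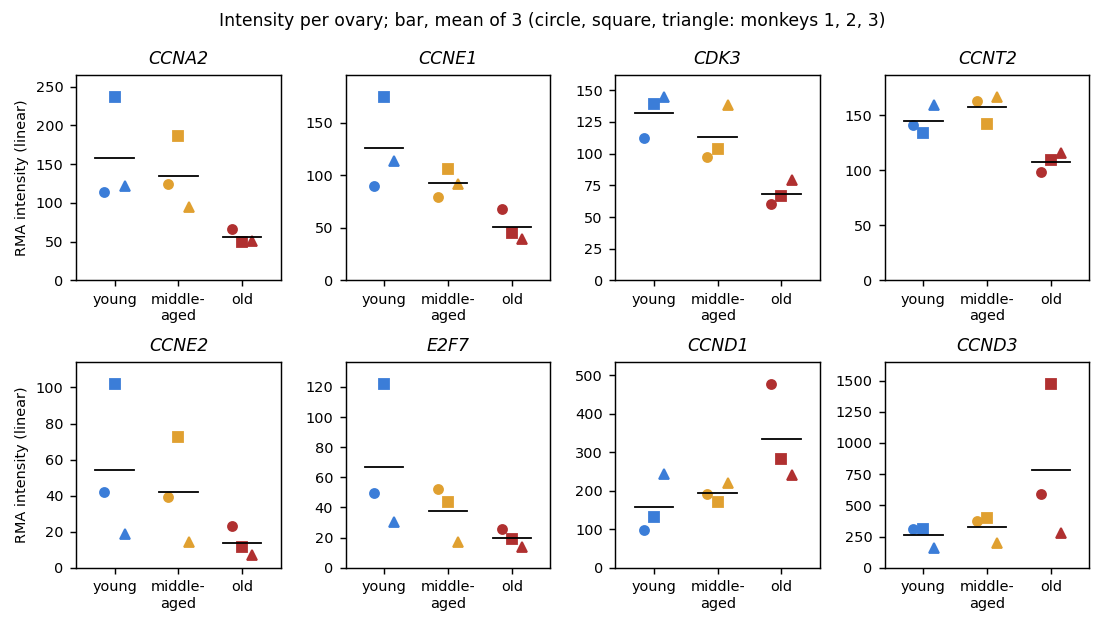
Deposited intensity on a linear scale in each ovary for 8 genes, with 1 point per monkey and a bar at the mean of 3. The marker shape gives the monkey's number in the labels, which do not say that it pairs monkeys. For CCNA2, CCNE1, CDK3 and CCNT2 the 3 old ovaries lie below the 6 others, whereas for CCNE2, CCND1 and CCND3 old and young overlap.

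The 4 CDKs of the division cycle had a median log2 difference of -0.73 between old and young, with all 4 negative. CDK3, a kinase linked to the exit from quiescence, measured 112, 139 and 145 in young, 97.6, 104 and 138 in middle-aged and 60.0, 66.2 and 78.9 in old ovaries. The old values were all below the 6 others, with little spread in the old group. The difference was -0.95 with an SE of 0.18 (1.93-fold lower, adjusted p = 0.0971). The other 2 probe sets of the gene had differences of 0.08 and -0.47, and the average of all 3 gave -0.44. The gene identifier of CDK3 is also the only 1 of the 36 that was not in the RefSeq gene table, so its name rests on the older array annotation.

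CDK2, the partner of cyclins E and A, measured 213, 310 and 246 in young, 276, 208 and 126 in middle-aged and 99.7, 194 and 129 in old ovaries. Old and young did not overlap, while the third middle-aged monkey lay among the old. The difference was -0.90 (adjusted p = 0.293), and the second probe set had -0.50. CDK6, a partner of the D-type cyclins, ranged from 31.2 to 40.3 in young and from 20.6 to 30.8 in old ovaries, a difference of -0.57 (adjusted p = 0.246), but its other probe set had 0.13. CDK4, the other D-type partner, overlapped across ages at 690, 784 and 694 in young, 804, 776 and 592 in middle-aged and 560, 780 and 552 in old ovaries. Its difference was -0.21 with a 95% interval from -0.61 to 0.19.

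None of the E2F factors passed the test. E2F1, an activator, was nearly constant at 56.4 to 62.3 in young, 60.3 to 62.9 in middle-aged and 62.3 to 67.4 in old ovaries. Its difference between old and young was 0.11, with a 95% interval from -0.11 to 0.32. E2F2, another activator, measured 30.2, 49.3 and 25.6 in young, 36.4, 42.7 and 17.8 in middle-aged and 24.1, 18.9 and 18.2 in old ovaries. Its old and young arrays did not overlap, at a difference of -0.73 (adjusted p = 0.415), but the other probe sets of E2F2 had 0.07 and -0.09. For E2F3 the first old monkey held the highest of the 9 values, 148, and the second old monkey the lowest, 55.5. The difference was -0.24, well inside that spread.

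The repressors E2F4 and E2F5, which bind DNA with pocket proteins in resting cells, had differences of -0.04 and -0.45. E2F7 and E2F8 are the atypical E2Fs, which bind DNA without a DP partner and shut down E2F target genes late in S phase. E2F7 measured 49.3, 122 and 30.1 in young, 52.2, 43.8 and 17.1 in middle-aged and 25.8, 19.3 and 13.9 in old ovaries. Old and young did not overlap, and the second young monkey stood apart from the others of its group. The difference was -1.57 (2.97-fold lower, adjusted p = 0.292), while the second probe set of the gene had 0.13. E2F8 measured 17.5, 58.8 and 15.5 in young, 29.5, 37.0 and 10.0 in middle-aged and 16, 10.8 and 7.26 in old ovaries. The first old monkey lay within the young range, and the difference of -1.22 had an adjusted p of 0.446.

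The 4 transcription cyclins had a median difference of -0.41 between old and young, and the 7 transcription CDKs -0.23. CCNT2, a cyclin of the elongation kinase CDK9, measured 141, 134 and 159 in young, 163, 142 and 167 in middle-aged and 98.2, 109 and 116 in old ovaries. This was a small and tight difference, with all old values below all 6 others. It came to -0.42 with an SE of 0.12 between old and young (1.34-fold lower, adjusted p = 0.205), which is under the fold minimum. A second probe set of CCNT2 had -0.41, while the other 2, both dimmer, had 0.06 and 0.11. CDK9 itself had a difference of 0.12, and CCNT1, its other cyclin, -0.50 with overlapping groups.

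CCNH and CDK7, which form the CDK-activating kinase, had differences of -0.40 and -0.51. For CCNH the first old monkey held the highest value, 502, and the third old monkey the lowest, 160. CDK7 measured 77.9 in the first old monkey and 46.5 and 39.6 in the other two, against 64.8 to 81.4 in young ovaries (adjusted p = 0.393). The Mediator kinases CDK8 and CDK19 had -0.33 and -0.37. All 4 probe sets of CDK8 were negative, from -0.62 to -0.33. CDK12, a kinase of RNA polymerase II, had -0.23, with all 5 probe sets negative and 1 of them at -0.49. CDK11B had -0.16. As a close copy of it exists in primates, its signal cannot be assigned with certainty. CDK13 had 0.08 and CCNL1 0.21.

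The 5 other CDKs (CDK10, CDK14, CDK15, CDK16 and CDK17) had a median difference of -0.03 and ranged from -0.33 to 0.18. CCNG1, a p53 target, was even across the study at 2387 to 3318 in young, 2446 to 3441 in middle-aged and 2674 to 3440 in old ovaries. Its difference was 0.07 with a 95% interval from -0.34 to 0.48. CCNG2, a cyclin linked to arrest, had -0.34.

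Several genes had more than 1 probe set, which allowed a second look. Of the 36 genes, 16 had 1 probe set and 20 had more. In 9 of these 20 all probe sets had the same sign between old and young, and in 11 the signs were mixed. CCNA2, CDK2, CDK8 and CDK12 were among the former, and CDK3, CDK6, CCNT2, E2F2 and E2F7 among the latter. CCNA2 had the largest negative value on its dimmer probe set, whereas for CCNE2, CDK3, CDK6, E2F2 and E2F7 the brightest probe set had the largest. Whether the probe sets of a gene read different transcripts was not tested.

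**Figure D3:**
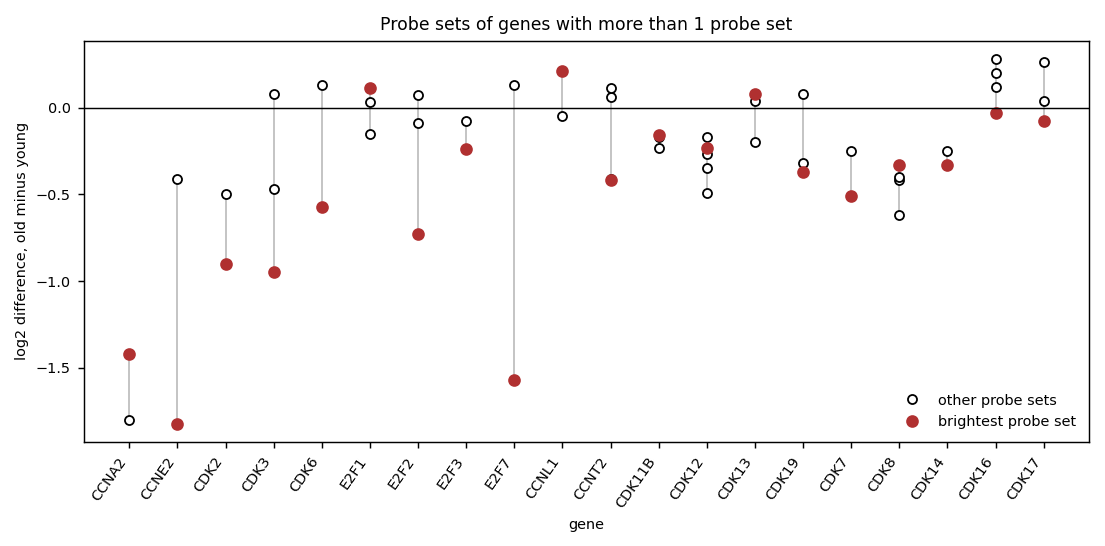
Log2 difference between old and young for every probe set of the 20 genes with more than 1; filled points are the brightest probe sets and open points the others. The probe sets of CCNA2 stay on the low side together, whereas those of CDK3, CDK6, CCNT2, E2F2 and E2F7 lie on both sides of 0.

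Against the middle-aged group, CCNT2, CDK3, CCNA2 and CCNE1 had the smallest p-values, all with lower levels in old ovaries and no overlap. These 4 (11.1%) were the only ones of the 36 with old arrays wholly below, beside 1303 of 14132 named genes. For CCND1 alone (2.78%) the old arrays lay wholly above, beside 787 named genes. The log2 difference between old and middle-aged ovaries was -0.55 (SE 0.12, adjusted p = 0.339) for CCNT2 and -0.72 (SE 0.18, adjusted p = 0.404) for CDK3. It was -1.22 (SE 0.33, adjusted p = 0.435) for CCNA2 and -0.89 (SE 0.28, adjusted p = 0.51) for CCNE1. CCNB3 came next at -0.81 (SE 0.38, adjusted p = 0.658). Here 0 of the 36 genes were called by limma and 0 by SAM, where limma called 0.0341% and SAM 0.100% of all probe sets. An unadjusted p under 0.05 was reached by 4 genes (11.1%) on the low side and 0 on the high side, beside 7.61% and 3.67% of named genes. The 4 became 9 without the third middle-aged monkey and 7 without the first old monkey. The share of named genes at this limit was not counted with those arrays left out, so these changes have no background beside them. The median difference over the 36 genes was -0.16. The comparisons with young and with middle-aged ovaries share the old arrays.

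Between middle-aged and young ovaries 0 of the 36 genes were called by limma or SAM, each of which called 0.00190% of all probe sets. CCNG2 measured 18.6, 16.9 and 17.9 in young and 14.3, 9.63 and 14.3 in middle-aged ovaries. The groups did not overlap, which on the low side held for this gene alone of the 36, beside 640 of 14132 named genes. On the high side it held for 0, beside 688. The difference of CCNG2 was -0.51 (SE 0.20, adjusted p = 1). It was the 1 gene (2.78%) lower at an unadjusted p under 0.05, beside 1.91% of named genes, and 0 were higher, beside 1.43%. This count went to 0 without any of the 3 young monkeys or the second middle-aged monkey, and to 2 without the first middle-aged or the first old monkey. For these settings too, the share of named genes was not counted. The next 4 by p were E2F5 at -0.50 (SE 0.25), CDK11B at -0.24 (SE 0.13), CCNE1 at -0.40 (SE 0.28) and CDK6 at -0.26 (SE 0.18), each with an adjusted p of 1.

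Set against the mean of both younger groups, the old group again gave 0 calls by limma, which called 0.116% of all probe sets. The differences were -0.83 (SE 0.15, adjusted p = 0.0938) for CDK3 and -1.32 (SE 0.28, adjusted p = 0.123) for CCNA2. They were -0.48 (SE 0.11, adjusted p = 0.127) for CCNT2, -1.09 (SE 0.24, adjusted p = 0.13) for CCNE1 and 0.92 (SE 0.30, adjusted p = 0.26) for CCND1. These 4 lower genes, CDK3, CCNA2, CCNT2 and CCNE1 (11.1%), were the ones whose old arrays lay below all 6 others, as did 6.98% of named genes. For 0 did the old arrays lie above all 6, beside 2.77%. Without the third middle-aged or the first old monkey there were 8 such lower genes, beside 9.30% and 10.3% of named genes. At an unadjusted p under 0.05, 10 genes (27.8%) were lower and 2 (5.56%), CCND1 and CCND3, higher, compared with 11.9% and 6.73%. The 10 became 6 without the second young, the first middle-aged, the second old or the third old monkey, settings in which the share of named genes was not counted.

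Calls depended on the method. Against the mean of both younger groups, SAM at a q under 0.05 called CCNA2, CCNE1 and CDK3, 3 of the 36, while it called 1.68% of all probe sets. In the same comparison a limma fit with the replicate number as a block called CDK3 alone, where it called 0.390% of all probe sets. Between old and young that fit also called CDK3 alone, where it called 0.434% of all probe sets.

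**Figure D4:**
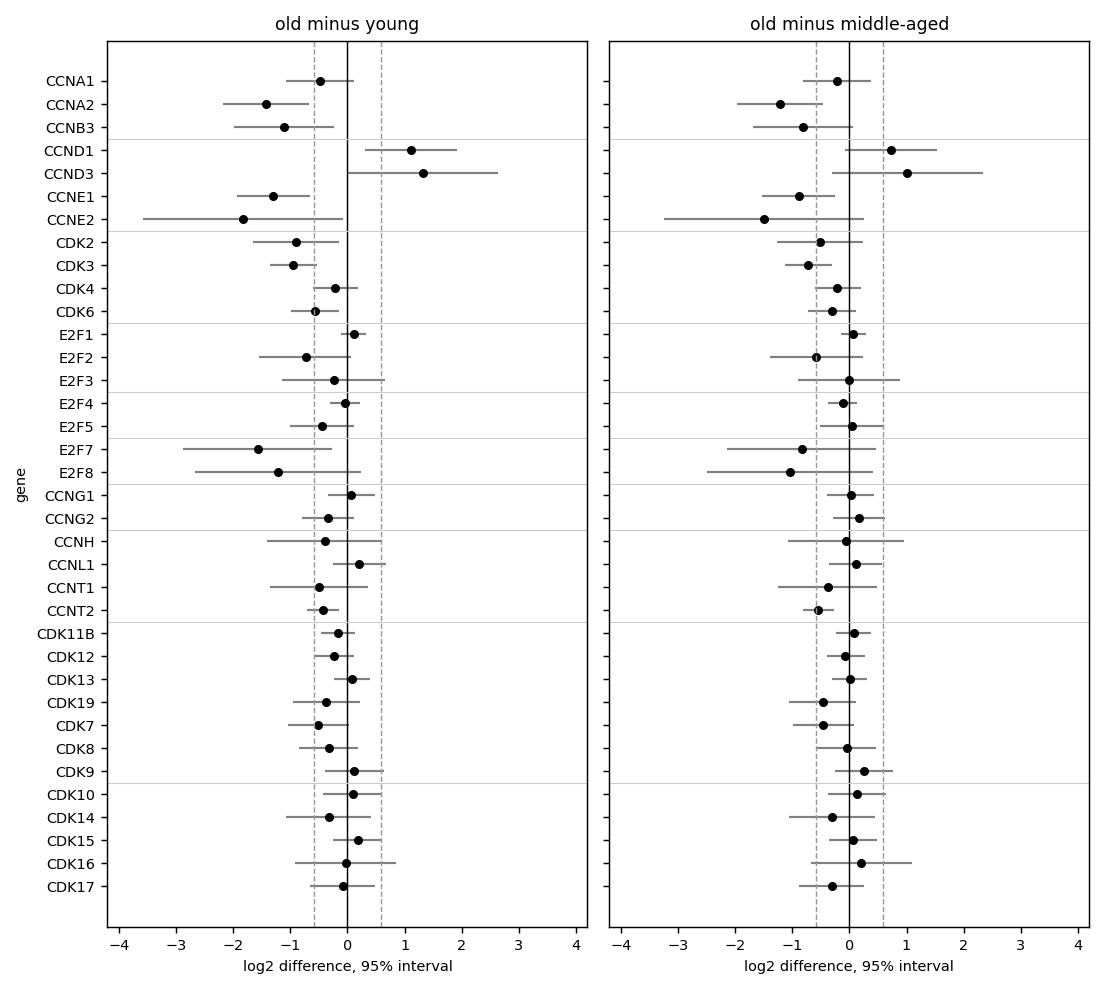
Log2 difference of each gene between old and young ovaries and between old and middle-aged ovaries, with its 95% interval from limma; dashed lines mark 1.5-fold either way, and rows are grouped by role. In the comparison with young ovaries 10 intervals exclude 0, 9 on the low side and CCND1 on the high side.

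The intervals set how much can be read from the genes that did not pass the test. Between old and young their half-width ran from 0.22 to 1.75 on the log2 scale with a median of 0.57, which is a fold of 1.48. For 6 genes, CCNG1, CDK11B, CDK12, CDK13, E2F1 and E2F4, the whole interval lay within 1.5-fold either way. For the others a change past 1.5-fold in at least 1 direction was not excluded.

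The genes that work with the cyclins, CDKs and E2Fs were described from 4 further lists. Of 10 pocket proteins, DP partners and members of their complexes, 8 were measured, 0 were called between old and young and the median difference was 0.02. RB1, the retinoblastoma protein, had 0.23. The 4 with the smallest p were LIN9 at -0.82, TFDP2 at -0.46, LIN37 at 0.52 and TFDP1 at 0.64. Of 16 activators and brakes of CDKs, 14 were measured and 0 were called, and the median was -0.40. At an unadjusted p under 0.05, 7 were lower and 0 higher, beside 12.0% and 6.80% of named genes.

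WEE1, the kinase that holds CDKs inactive, measured 112, 174 and 162 in young, 114, 139 and 73.0 in middle-aged and 41.5, 52.5 and 77.5 in old ovaries. Old and young did not overlap, at a difference of -1.41 (adjusted p = 0.126). CDC25C, the phosphatase that opposes WEE1, had -1.45 (adjusted p = 0.13). The CDK-binding proteins CKS1B and CKS2 had -0.87 (adjusted p = 0.132) and -2.69 (adjusted p = 0.147).

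Of 33 DNA replication genes known as E2F targets, 23 were measured, 20 had a negative difference and the median was -0.92. MCM3, a subunit of the replicative helicase, was called lower, the 1 call of this list, where 0.155% of all probe sets were called. It measured 431, 955 and 651 in young, 446, 595 and 412 in middle-aged and 150, 154 and 111 in old ovaries, a difference of -2.24 (adjusted p = 0.0394) with no overlap. At an unadjusted p under 0.05, 17 of the 23 were lower and 0 higher, beside the same 12.0% and 6.80%. GINS2 at -3.37 (adjusted p = 0.0549), MCM5 at -1.70 (adjusted p = 0.0922) and TYMS at -2.14 (adjusted p = 0.0929) came next.

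Of 22 mitosis genes, 14 were measured, all 14 had a negative difference, and the median was -2.03. AURKA, a kinase of the spindle poles and of oocyte meiosis, was called lower, the 1 call of this list, where 0.155% of all probe sets were called. It measured 348, 710 and 640 in young, 314, 458 and 383 in middle-aged and 85.2, 68.6 and 68.0 in old ovaries, a difference of -2.88 (adjusted p = 0.0142). The old values were all below the 6 others and close to each other. At an unadjusted p under 0.05, 11 of the 14 were lower and 0 higher, again beside 12.0% and 6.80%. ASPM at -2.86 (adjusted p = 0.156), TPX2 at -1.92 (adjusted p = 0.164) and CENPE at -1.07 (adjusted p = 0.181) were next by p. The median differences of the replication and mitosis lists were thus larger in size than that of the 36 cyclins, CDKs and E2Fs, and this was not tested.

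The extremes were also counted by ovary. Of the 36 genes, 27 had their highest value in a young or middle-aged ovary and 20 had their lowest in an old one, where 57.0% and 45.5% of named genes did. Among the 6 younger ovaries, the second young monkey held the highest value for 13 genes and the third middle-aged monkey the lowest for 13, where the shares of named genes were 18.2% and 23.4%. Both held for 9 genes: CCNA1, CCNA2, CCNE2, CDK2, CDK11B, CDK16, E2F2, E2F7 and E2F8. The share of named genes for which both held was not counted, so this count has no background beside it.

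The median over the 36 genes of log2 intensity minus the mean of each gene was 0.05, 0.24 and 0.05 in the young, 0.10, 0.07 and -0.07 in the middle-aged and -0.18, -0.09 and -0.32 in the old ovaries. All 3 old ovaries were below the 6 others. On the same scale the mitosis genes stood at 0.57, 1.78 and -0.08 in the young, 0.93, 0.88 and -0.60 in the middle-aged and -0.41, -1.39 and -1.67 in the old ovaries. For mitosis genes the third middle-aged ovary lay within the old range, and the third young ovary was the lowest of its group.

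Markers of granulosa cells also varied between single ovaries. Of 10 such markers 7 were measured and 0 were called between old and young. An unadjusted p under 0.05 was reached by 2 on the low side and 2 on the high side, beside 12.0% and 6.80% of named genes. The median difference was -1.52. Their centred median was 0.98, 2.29 and -1.25 in the young, 1.42, 0.18 and -1.57 in the middle-aged and 0.19, -1.41 and -1.23 in the old ovaries. Of the 6 younger ovaries, the second young was highest and the third middle-aged lowest, as in the median of all 36 genes. AMH, a product of small growing follicles, measured 625, 3292 and 412 in the young, 1218, 952 and 123 in the middle-aged and 56.4, 72.3 and 65.0 in the old ovaries. Its old values were all below the 6 others.

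The summed intensity of the granulosa markers overlapped between ages, with 1297 to 10223 in young, 912 to 7315 in middle-aged and 1376 to 10621 in old ovaries. INHA and INHBA were higher in old ovaries at an unadjusted p under 0.05, by 2.67 and 1.89. In the old ovaries INHA measured 6350, 2375 and 522, INHBA 2343, 326 and 494, and CYP19A1 1389, 60.9 and 48.8. The first old monkey was thus highest for all of these, and the upper end of the old sums reflects it. Of the 7 measured granulosa markers, 4 had a negative difference between old and young and 3 a positive one. FOXL2 and FSHR had no probe set with their symbol. Of 16 oocyte markers 13 were measured and 5 were called lower in old than in young ovaries, where 0.155% of all probe sets were called, with a median difference of -0.82. ZP4 alone lay on the other side at 0.83, with no overlap. The centred median of the oocyte markers was 0.24, 0.77 and 0.66 in the young and 0.04, 0.44 and 0.91 in the middle-aged ovaries. In the old ovaries it was -0.56, -1.31 and -0.72. Of the 6 younger ovaries, the third middle-aged was highest for these markers, unlike for the granulosa markers. The summed intensity of the oocyte markers was 2545 to 7453 in young, 1496 to 5432 in middle-aged and 579 to 1730 in old ovaries. Values on this scale lie above 0 for every probe set, the lowest being 3.14. A value above 0 therefore does not show that a cell type was present. The part of either cell type in the cyclin, CDK and E2F values was not tested.

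Markers of other cell types differed in direction, with 0 called in each list. The 8 surface epithelium markers had a median difference of -0.66 between old and young. At an unadjusted p under 0.05, 4 were lower, beside 12.0% of named genes. Their summed intensity was 2798 to 4725 in young, 1706 to 2490 in middle-aged and 1168 to 1861 in old ovaries. The median difference was 1.44 over 8 measured endothelial markers of 9, but their centred median was 1.37, -0.52 and 1.42 in the old ovaries, and the second was level with the third young ovary. Their summed intensity was 1975 to 2690 in young, 2571 to 5530 in middle-aged and 2527 to 10719 in old ovaries. For 5 smooth muscle markers of 8 it was 1.06 against young and -0.28 against middle-aged ovaries, and the centred median was -0.66, -0.31 and 1.48 in the old ovaries. Their sums were 4549 to 5817, 7021 to 14305 and 6400 to 20301 in the same order of ages. For 4 theca and luteal markers of 7 the median difference was 1.61, with sums of 1997 to 6665, 1711 to 6732 and 7641 to 36503. The median difference was 0.66 over 6 macrophage markers of 7 and 0.64 over 4 B and plasma cell markers of 5. It was -0.06 over 7 stroma markers of 8 and -0.08 over 7 ciliated oviduct and rete markers of 8. Of 6 T cell markers only 1 was measured, at 0.31. CCND1 and CCND3 were the 2 of the 36 genes with the largest positive differences, and the part of these cell types in them was not tested.

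**Figure D5:**
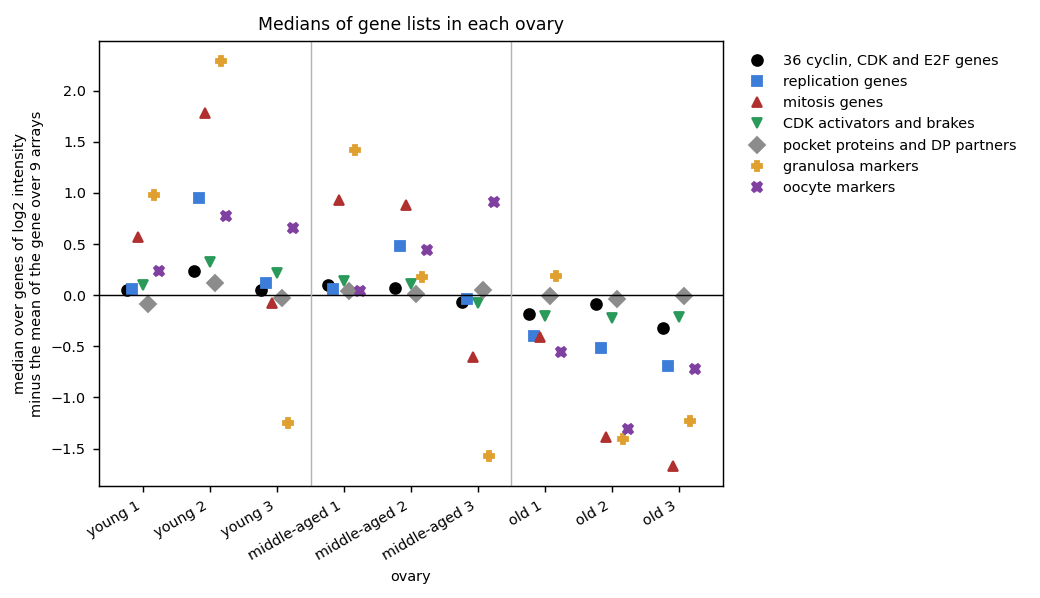
Median over each gene list of log2 intensity minus the mean of the gene over the 9 arrays, for each ovary. The 36 genes (circles) span 0.24 to -0.32, whereas mitosis genes and granulosa markers span from 1.78 to -1.67 and from 2.29 to -1.57, with the young 2 ovary highest in both.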

How the data were processed

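The ovaries of 9 rhesus monkeys were measured on 9 single-colour Affymetrix arrays. Per the labels, the authors made the deposited intensity values with RMA (version not given in the sources used here), and they are on a linear scale. The methods of the paper describe LOWESS normalization with dye reversal instead, and the labels were followed here. Scan dates and batches are not given in the sources used here. The file holds 52865 probe sets. After 99 control probe sets were left out, 52766 were taken to log2 without further normalization. The array annotation (GEO's, of an older date) gives 1 symbol to 24956 probe sets, several to 361 and none to 27449. Of the 36 genes, 35 had identifiers in the RefSeq gene table. No sequences are shown, because none were at hand.

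The tests were run in R (version 4.3.3) with limma (version 3.58.1). The model held 1 mean for each age group, all 9 arrays entered, and p-values had a Benjamini-Hochberg adjustment over all probe sets. SEs and 95% intervals are those of limma. Lists are described by counts and medians, with no test. Full statistics are given for the 5 genes with the smallest p in each comparison, and from each partner list the 4 genes with the smallest p between old and young and the called genes are named. The genes and lists were chosen with earlier results of these data known. The number of arrays limits the precision. Alternatives were other scalings, filters, variance settings and probe set rules, SAM, a replicate block, and leaving out arrays.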

Additional observations from a re-analysis of the deposited data

How the results depend on the processing

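For the 20 pairs of a named gene and a comparison, no direction reversed in the 22 or 23 alternative settings that gave a value. Calls appeared under 2 settings. SAM called 3 of the 36 genes in old against the mean of the younger groups (CCNA2, CCNE1 and CDK3), and the replicate block called 1 (CDK3) there and 1 (CDK3, adjusted p = 0.04) in old against young. The cause was not tested. For CDK3 in old against young the adjusted p ranged from 0.04 to 0.342. The labels do not say that the replicate numbers pair the monkeys. With group means removed, correlations of same-numbered arrays ran from -0.025 to 0.41. They were 0.252 to 0.410 for arrays numbered 3, 0.095 to 0.267 for number 1 and -0.025 to 0.056 for number 2. Outside their own group, 5 of 9 arrays correlated best with their own number. Whether arrays of the same number share a batch was not tested.

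Leaving out the 3 arrays numbered 3 together was chosen after seeing the data. Old arrays then lay below the young for 20 genes (24.7% of named genes) and below all younger arrays for 14 (15.4%), as fewer arrays separate more easily, and the median difference between middle-aged and young became -0.04. Leaving out 1 array at a time gave 11 to 17 and 4 to 8 such genes, beside 13.8% to 20.1% and 7.28% to 12.4% of named genes. The median between middle-aged and young was then -0.18 to -0.03, with -0.04 without the second young and -0.03 without the third middle-aged monkey. The spread of the 36-gene median between monkeys was 0.11 (SD, log2). No depth is defined for array intensities, and signal over background could not be assessed.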
